A study of Drosophila melanogaster with 30 samples.

Results

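Genes of axon guidance and neuronal recognition, 8 in all, were followed in a Drosophila melanogaster study of GAGA-associated factor (GAF), the product of Trithorax-like (Trl). They are the genes for the secreted Netrins NetA and NetB, the Netrin receptor frazzled (fra), the Ryk-type receptors doughnut on 2 (dnt) and derailed (drl), the Slit receptor robo2, the teneurin Ten-a and the immunoglobulin-domain protein side-IV. The 8 genes were taken from a table of 17868 genes because chromatin loops in the same series carry their names, or, for fra, because it is the receptor of the Netrins. Wing disc loops named NetA/NetB, robo2 and CG14372 (the earlier name of side-IV) made 3 of 209, and embryo loops named NetA/NetB, dnt/drl and Ten-a/CG15734 made 3 of 186.

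RNA-seq covered wing imaginal discs of wandering third-instar larvae that carried Halo-tagged GAF in 3 forms. These were delta-POZ, delta-Q and the full-length Halo-Trl, with 3 libraries of 30 discs each. Chromatin contacts were measured in discs of homozygous larvae of the same 3 lines (2 libraries of 90 discs each) and in embryos 2 to 2.5 h after fertilization. The embryos were GAF(deGradFP), in which GAF was depleted, or sfGFP-GAF(N) control (4 libraries each). The deletion lines are compared with a tagged line and not with untagged flies, and no library separates a line's background from its deletion, so these cannot be told apart. The 7 CUT&Tag samples of the series were not analysed here.

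GAF binds GAGAG motifs through a zinc finger. Through the POZ domain GAF molecules assemble into oligomers, and the Q domain is rich in glutamine. The deGradFP system recruits GFP-tagged proteins to the ubiquitin ligase machinery. Netrins are secreted cues that attract or repel growth cones through Frazzled and other receptors. Derailed and Doughnut on 2 are related receptors for Wnt5, Robo2 is one of the receptors for the midline repellent Slit, teneurins match synaptic partners, and proteins of the Sidestep (Side) family bind those of the Beaten path (Beat) family on neighbouring cells. In the wing disc, Netrins and Frazzled are known from the eversion of the disc epithelium, and several of these molecules serve in sensory and motor axons of the larva.

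The depth of the RNA libraries was 57673928 to 85575887 gene-assigned reads, with a mitochondrial share of 15.1% to 31.1%. Disc libraries held 23944 to 31995 contacts summed over 209 loops, and embryo libraries 1715 to 7347 over 186 loops. The tissue label fitted its markers: all 10 wing epithelium markers were measured, and their summed level was 3673 to 4402 CPM in delta-POZ, 3497 to 4443 in delta-Q and 3912 to 4766 in Halo-Trl (CPM, a count scaled to effective library size). Levels of Trl RNA were 61.0 to 78.4 CPM in delta-POZ, 56.6 to 64.0 in delta-Q and 41.8 to 51.3 in Halo-Trl, and gene-level reads do not show which part of Trl a line lacks. One library, delta-POZ 2, stood apart in neuron markers, and its 6 markers summed to 803 CPM. The sum was 20.6 and 26.1 in delta-POZ 1 and 3, 11.5 to 34.1 in delta-Q and 62.6 to 84.4 in Halo-Trl. Most of the Halo-Trl sum was a single gene, elav, which averaged 64.0 CPM there and 7.66 in delta-Q. Mean levels of the other neuron markers were 0.392 to 5.75 CPM in Halo-Trl and 0.620 to 7.36 in delta-Q. Fat body markers (6 genes) summed to 17.5 to 58.2 CPM in delta-POZ, 401, 983 and 6075 in delta-Q 1, 2 and 3, and 3385, 11.8 and 29.5 in Halo-Trl 1, 2 and 3. No marker of either list was at 0 in any library. Muscle precursor markers (8 genes) summed to 375 to 439 CPM in delta-POZ, 287 to 337 in delta-Q and 282 to 328 in Halo-Trl. Every delta-POZ library lay above the other lines in this sum. Of the 8, 1 was called higher in delta-POZ than in Halo-Trl, zfh1 (log2 0.75, SE 0.17, edgeR adjusted p = 0.0209). Mean levels in delta-POZ and Halo-Trl were 122 and 72.9 CPM for zfh1, 102 and 69.9 for ct, and 146 and 127 for Mef2. They were 15.6 and 9.62 for Act57B, 2.42 and 1.98 for Him, and 1.72 and 0.400 for Mhc. For twi they were 4.55 and 4.53, and htl was lower in delta-POZ, at 20.5 and 23.5. Hemocyte markers (6 genes) summed to 158 to 621 CPM in delta-POZ, 233 to 712 in delta-Q and 118 to 299 in Halo-Trl. Of these 6, 2 were called higher in delta-POZ than in Halo-Trl, and 1 glia and 1 neuron marker were called higher there too. Of all genes, 4.93% were called higher in that comparison. The part of these markers in the results was not tested. In bulk tissue, fewer cells of a type and less RNA per cell cannot be told apart.

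The loops themselves come first, since they define the gene set. The NetA/NetB loop was present in both lists. In the disc list it joins 5000-bp anchors on chromosome X, 14651501 to 14656500 and 14747501 to 14752500, 96.0 kb apart. In the embryo list it joins 1600-bp anchors at 14653401 to 14655000 and 14749001 to 14750600. The sources used here do not name the genome build of these coordinates. In the gene order of RefSeq, a single gene, CG5321, lies between NetA and NetB, and it had 133 reads over all 9 RNA libraries.

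The disc list labels a loop on chromosome 2L, 1418101 to 1423100 and 1458501 to 1463500, with robo2. The embryo list has a loop with overlapping anchors, 1419801 to 1421400 and 1460201 to 1461800, and gives it no gene name. The same holds for side-IV. Its disc loop on chromosome 3R, 13447301 to 13452300 and 13536101 to 13541100, is labelled CG14372, and the embryo list has an unnamed loop at 13449201 to 13450800 and 13538001 to 13539600. The remaining loops are in the embryo list only, with no disc loop at a matching place. They are the dnt/drl loop on chromosome 2L, 19189001 to 19190600 and 19362601 to 19364200, and the Ten-a/CG15734 loop on chromosome X, 12085401 to 12087000 and 12202201 to 12203800. Between drl and dnt, RefSeq places 9 other genes, of which 3 are protein-coding, and all 9 together had 316 reads in the RNA libraries.

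Most of these loops were long for their lists, and their strength varied. The dnt/drl loop spans 173.6 kb, the fourth longest of 186 embryo loops, and ranked 151 by mean contacts. Ten-a/CG15734 spans 116.8 kb and ranked 9 by length and 168 by contacts. NetA/NetB ranked 18 by length and 195 by contacts among 209 disc loops, and 16 and 140 among the embryo loops. The robo2 and CG14372 loops had many contacts in discs. They ranked 34 and 30 of 209 by contacts, at distances of 40.4 and 88.8 kb. No loop in either list shares only 1 anchor with any of these loops.

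**Figure D1:**
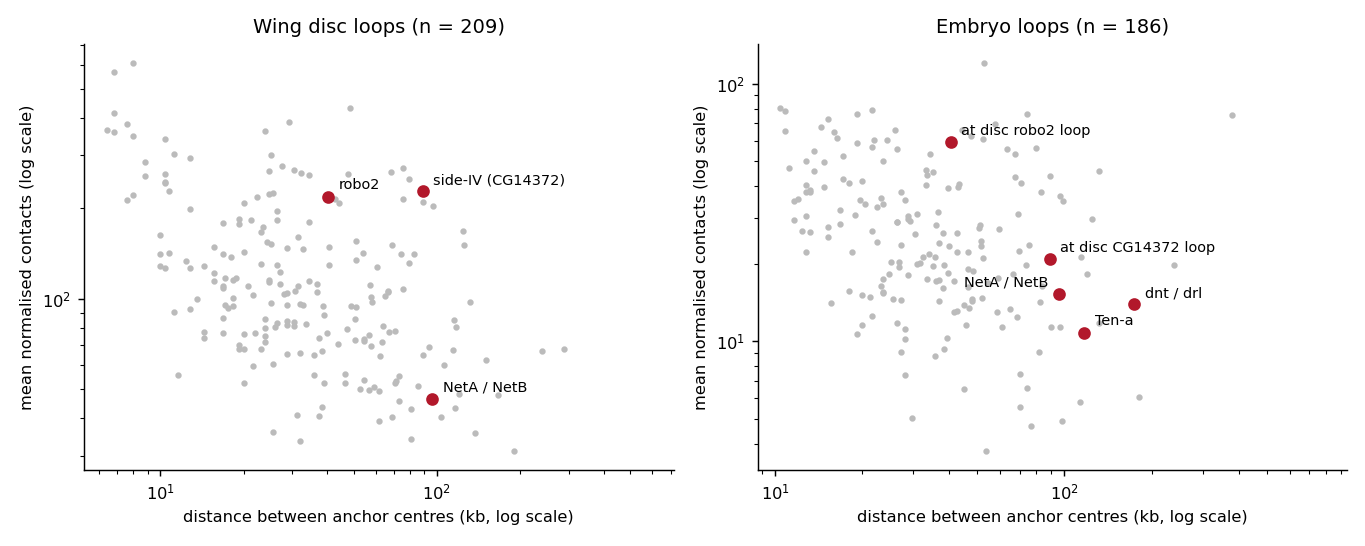
Distance between anchor centres (kb, log scale) against mean normalised contacts over all libraries (log scale) for every loop of the wing disc list (left, n = 209) and the embryo list (right, n = 186). Red points are the loops of the guidance genes: NetA/NetB lies near the bottom of the disc list at 96.0 kb, while robo2 and CG14372 lie among the 34 disc loops with the most contacts.

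In wing discs, delta-POZ had fewer contacts than Halo-Trl at the CG14372 (side-IV) loop, and this was the single member loop that passed the test. Normalised contacts at the CG14372 loop were 171 and 148 in delta-POZ and 293 and 236 in Halo-Trl. Both delta-POZ libraries lay below both Halo-Trl libraries. Contacts fell by 39.6% (log2 fold change -0.73, SE 0.16, 95% interval -1.05 to -0.41, edgeR adjusted p = 0.000276). For disc loops the fit takes its estimate of spread almost wholly from all loops together. The interval is thus no measure of how the 2 libraries of each line vary at this loop. Of all 209 loops, 4.31% were called in this comparison, each of them lower. The call was lost without Halo-Trl 1 (adjusted p = 0.0644) or delta-POZ 2 (0.107), each of which leaves 1 library of a line and assumes that it varies like the others. In the authors' deposited table for delta-POZ the CG14372 loop has a log2 fold change of -0.73 (SE 0.19) and an adjusted p of 0.00431.

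The same loop was not lower in delta-Q. The CG14372 loop held 237 and 280 normalised contacts in delta-Q, both between the 2 Halo-Trl libraries (log2 -0.03 against Halo-Trl, 95% interval -0.34 to 0.28, edgeR adjusted p = 0.988). No disc loop was called in that comparison (0% of 209, with 4, or 1.91%, at an unadjusted p under 0.05 in edgeR, and DESeq2 also called 0). Set directly against delta-POZ, delta-Q had more contacts at the CG14372 loop (log2 0.70, SE 0.17, edgeR adjusted p = 0.00134), where 4.31% of loops were called. This difference lost its call without delta-POZ 2 (adjusted p = 0.159) or delta-Q 2 (0.0930). Both comparisons use the same delta-POZ libraries.

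The NetA/NetB loop also had its lowest contacts in delta-POZ, but it held far fewer contacts in all and did not pass the test. Normalised contacts at NetA/NetB were 33.9 and 33.9 in delta-POZ, 52.0 and 53.1 in delta-Q, and 56.3 and 49.0 in Halo-Trl. Both delta-POZ libraries lay below all libraries of the other lines, and delta-Q overlapped Halo-Trl. Of all 209 loops, 41.6% had no overlap between delta-POZ and Halo-Trl, 34% had none between delta-Q and delta-POZ and 25.8% had none between delta-Q and Halo-Trl, so separation of 2 libraries from 2 is common. Among the 3 member loops these counts were 2, 2 and 0. The log2 fold change of delta-POZ over Halo-Trl was -0.63 (SE 0.23, 95% interval -1.08 to -0.17, unadjusted p = 0.00680, edgeR adjusted p = 0.109), and that of delta-Q over delta-POZ was 0.63 (SE 0.24, edgeR adjusted p = 0.115). Between delta-Q and Halo-Trl the log2 difference at NetA/NetB was 0.0018 with a 95% interval from -0.43 to 0.44. The raw contacts behind these values were 32 to 59 per library. In the authors' deposited table the loop has a log2 fold change of -0.64 (SE 0.36) for delta-POZ and an adjusted p of 0.985.

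The robo2 loop did not separate the lines. It held 250 and 205 normalised contacts in delta-POZ, 223 and 208 in delta-Q, and 219 and 208 in Halo-Trl. All 3 lines overlapped. Its log2 fold change was 0.09 for delta-POZ over Halo-Trl (95% interval -0.23 to 0.40, edgeR adjusted p = 0.870) and 0.01 for delta-Q over Halo-Trl (-0.31 to 0.33, edgeR adjusted p = 0.988).

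**Figure D2:**
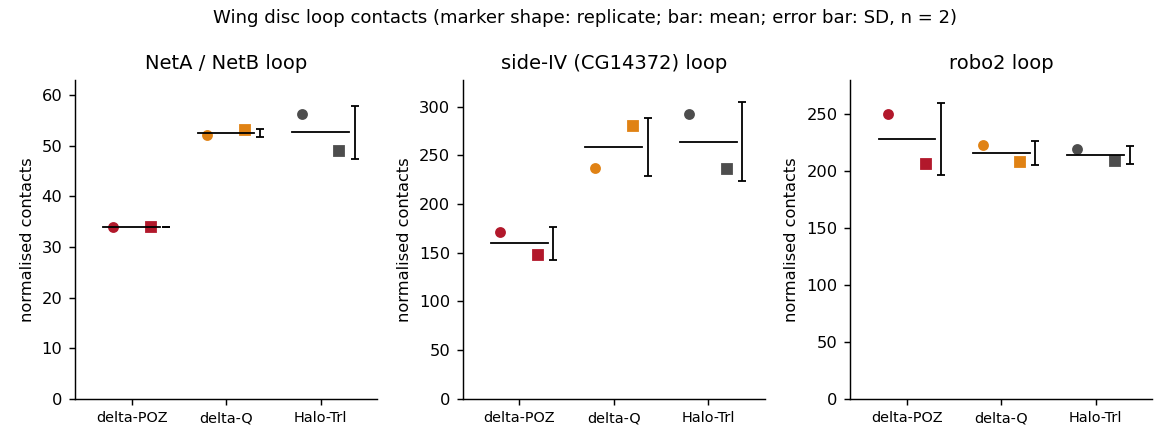
Normalised contacts (contacts divided by relative effective library size) at 3 wing disc loops in delta-POZ, delta-Q and Halo-Trl, one panel per loop, with each axis starting at 0. Points are libraries, the bar is the mean and the error bar the SD (n = 2); at NetA/NetB and CG14372 both delta-POZ points lie below the rest, at 33.9 and 33.9 and at 171 and 148.

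In embryos, GAF depletion gave no called difference at the 5 loops of this gene set. Over all 186 loops 2.69% were called, and 1 of the 5 had an unadjusted p under 0.05, against 15.6% of all loops. Groups overlapped at all 5, while 10.8% of all loops had no overlap. The NetA/NetB loop held 12.9, 6.95, 17.1 and 11.6 normalised contacts in GAF(deGradFP) and 14.5, 19.4, 19.5 and 20.4 in sfGFP-GAF(N) control. The groups overlapped at a single pair of libraries, the highest depleted one at 17.1 and the lowest control at 14.5. In embryos NetA/NetB gave a log2 fold change of -0.62 (SE 0.33, 95% interval -1.29 to 0.04, edgeR adjusted p = 0.395).

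The Ten-a/CG15734 loop had the largest negative value of the 5. Normalised contacts at Ten-a/CG15734 were 8.62, 10.8, 3.80 and 7.38 in GAF(deGradFP) and 14.5, 16.1, 0 and 25.3 in sfGFP-GAF(N) control. In 3 of 4 controls the value lay above every depleted library, while control 3, the shallowest library, had an empty cell that was read as 0. This gave a log2 fold change of -1.08 (SE 0.42, 95% interval -1.93 to -0.23, unadjusted p = 0.0142, edgeR adjusted p = 0.142). Without control 3 it was -1.27 (edgeR adjusted p = 0.0574), and without control 4 it was -0.70 (adjusted p = 0.525). These values rest on 35 contacts in all depleted libraries together and 62 in all controls.

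The dnt/drl loop had the opposite sign. Its normalised contacts were 20.7, 10.8, 20.9 and 12.7 in GAF(deGradFP) and 15.7, 10.1, 9.75 and 10.6 in sfGFP-GAF(N) control, with overlap between the groups. For dnt/drl the log2 fold change was 0.48 (SE 0.34, 95% interval -0.22 to 1.17, edgeR adjusted p = 0.518). The unnamed embryo loops at the places of the disc robo2 and CG14372 loops gave log2 fold changes of -0.17 (95% interval -0.58 to 0.25, edgeR adjusted p = 0.767) and 0.15 (-0.39 to 0.70, adjusted p = 0.867). At the robo2 place the contacts ranged from 43.9 to 64.1 in GAF(deGradFP) and from 57.5 to 74.7 in controls. At the CG14372 place they ranged from 16.2 to 25.3 in GAF(deGradFP) and from 17.7 to 22.0 in controls. Embryos and discs differ in stage, in anchor size and in how GAF was altered, and the tables were normalised separately, so no difference between them was tested.

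**Figure D3:**
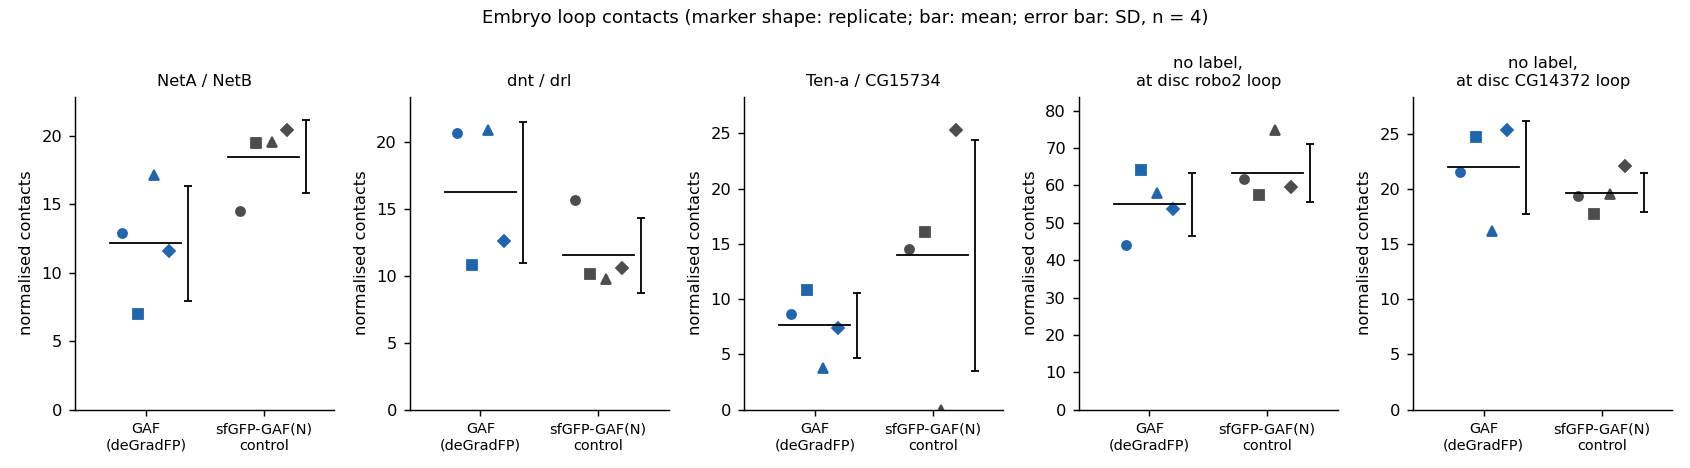
Normalised contacts at 5 embryo loops in GAF(deGradFP) and sfGFP-GAF(N) control, one panel per loop, with each axis starting at 0. Points are libraries, the bar is the mean and the error bar the SD (n = 4); every panel shows overlap, and in the Ten-a/CG15734 panel control 3 is at 0 and control 4 at 25.3.

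All 8 genes were expressed in the discs and passed the filter on low counts. Reads per library ranged from 182 to 380 for side-IV and were at least 4802 for each other member. None of the 8 was called in delta-POZ over Halo-Trl, where edgeR called 10.1% of 10359 genes, and 4 of 8 had an unadjusted p under 0.05, against 26% of all genes. In delta-Q over Halo-Trl none was called (0.656% of all genes), with 1 of 8 at an unadjusted p under 0.05 against 7.82% of genes. In delta-Q over delta-POZ none was called (4.6% of all genes), with 2 of 8 at an unadjusted p under 0.05 against 20.3%. DESeq2 called dnt, drl and robo2 in delta-POZ over Halo-Trl, where it called 1643 of the same 10359 genes. It called robo2 in delta-Q over delta-POZ, where it called 1015 of them. For these genes the call depended on the processing. Groups did not overlap for 3 of 8 genes in delta-POZ over Halo-Trl (33% of all genes), for 2 of 8 in delta-Q over Halo-Trl (13.1%) and for 0 of 8 in delta-Q over delta-POZ (24.2%). Comparisons of the deletion lines with Halo-Trl share the Halo-Trl libraries.

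**Figure D4:**
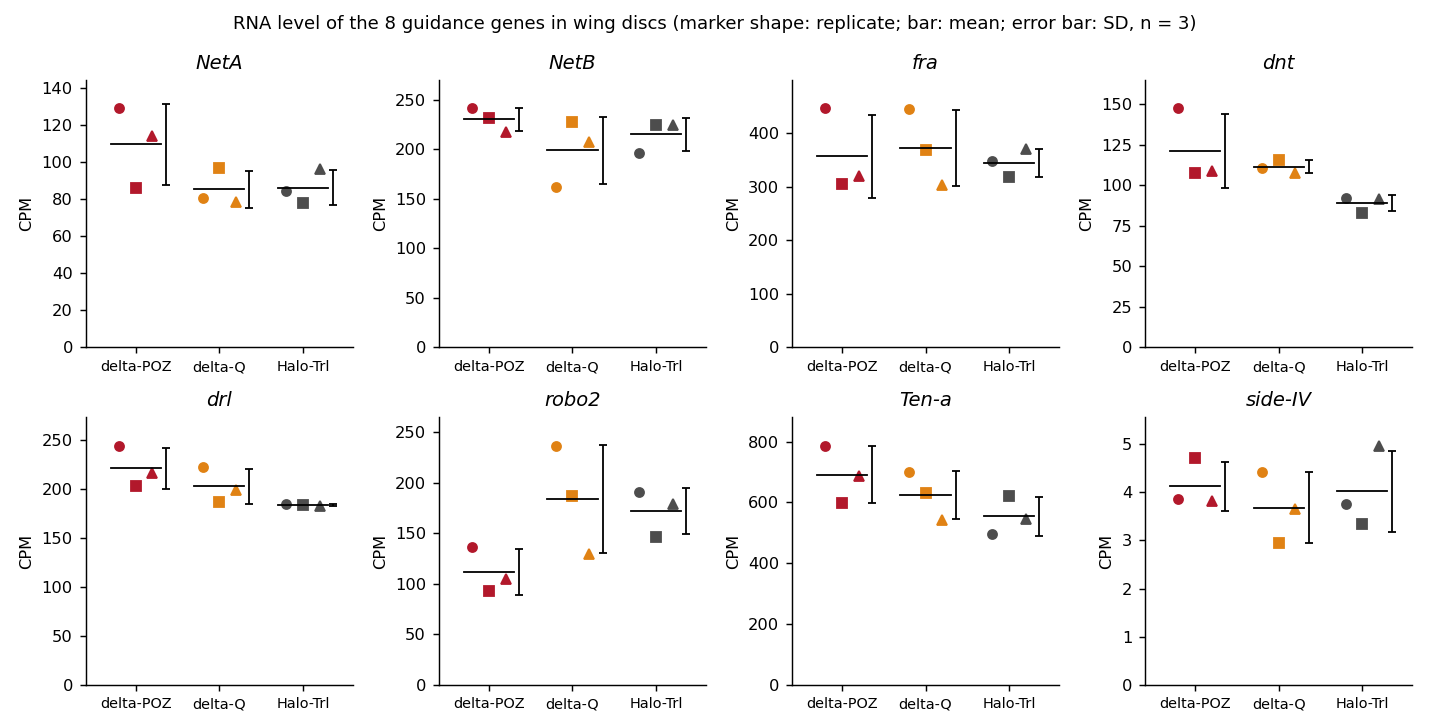
RNA level (CPM, each axis starting at 0) of the 8 genes in delta-POZ, delta-Q and Halo-Trl wing discs, one panel per gene. Points are libraries, with marker shape giving the replicate, the bar is the mean and the error bar the SD (n = 3); dnt and drl lie above Halo-Trl in all delta-POZ and delta-Q libraries, and robo2 lies below Halo-Trl in all delta-POZ libraries.

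Among the ligands, NetA had the larger value of the Netrin pair. NetA was at 129, 85.7 and 114 CPM in delta-POZ, 80.3, 96.6 and 78.4 in delta-Q, and 84.0, 78.1 and 96.2 in Halo-Trl. In delta-POZ 1 and 3 NetA lay above all other libraries, and delta-POZ 2 lay within the range of Halo-Trl. NetA gave a log2 fold change in delta-POZ over Halo-Trl of 0.35 (SE 0.16, 95% interval -0.0014 to 0.70, edgeR adjusted p = 0.194). Without delta-POZ 2, the library high in neuron markers, it was 0.50 (edgeR adjusted p = 0.0596). Delta-Q over Halo-Trl gave -0.02 (95% interval -0.36 to 0.33, edgeR adjusted p = 0.996), and delta-Q over delta-POZ gave -0.36 (SE 0.16, unadjusted p = 0.0423, edgeR adjusted p = 0.227).

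NetB, the partner at the loop, was steadier. Its levels were 241, 232 and 217 CPM in delta-POZ, 162, 228 and 208 in delta-Q, and 196, 224 and 224 in Halo-Trl. All lines overlapped. For NetB it was 0.10 in delta-POZ over Halo-Trl (95% interval -0.19 to 0.39, edgeR adjusted p = 0.691) and -0.11 in delta-Q over Halo-Trl (-0.40 to 0.18, edgeR adjusted p = 0.946). Their receptor fra ranged from 305 to 446 CPM in delta-POZ, 304 to 446 in delta-Q and 317 to 370 in Halo-Trl. Its log2 fold changes over Halo-Trl were 0.05 (95% interval -0.34 to 0.44, edgeR adjusted p = 0.893) in delta-POZ and 0.11 (-0.28 to 0.51, edgeR adjusted p = 0.964) in delta-Q. In the line with the lowest NetA/NetB contacts, neither Netrin nor fra passed the test.

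The Ryk-type receptors dnt and drl, which share an embryo loop, were both higher in every deletion library than in any Halo-Trl library. dnt was at 147, 108 and 109 CPM in delta-POZ, 111, 116 and 108 in delta-Q, and 92.5, 83.2 and 91.8 in Halo-Trl. drl was at 244, 203 and 216 CPM in delta-POZ, 222, 187 and 199 in delta-Q, and 184, 183 and 183 in Halo-Trl. Neither line overlapped Halo-Trl for either gene, and the drl levels in delta-POZ overlapped those in delta-Q, as did those of dnt. Such separation upward was shared by 16.2% of all genes in delta-POZ and 7.36% in delta-Q, so that separation alone is not rare.

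For dnt the log2 fold change in delta-POZ over Halo-Trl was 0.44 (SE 0.13, 95% interval 0.16 to 0.73, edgeR adjusted p = 0.0542), just outside the threshold of 0.05. dnt was called by DESeq2 (adjusted p = 0.00964), under 3 other normalizations or library sizes (edgeR adjusted p of 0.0463 to 0.0481), under a stricter filter (0.0352) and without delta-POZ 2 (0.0476). Without delta-POZ 1, its highest library, it was 0.28 (edgeR adjusted p = 0.127), and over all alternatives its adjusted p ran from 0.00964 to 0.179. In the authors' deposited table, which carries no name for its comparison but whose fold changes lay within 0.01 of a DESeq2 refit of delta-POZ over Halo-Trl for 99.2% of genes, dnt has a log2 fold change of 0.46 and an adjusted p of 0.00951. In delta-Q over Halo-Trl dnt gave 0.32 (SE 0.13, unadjusted p = 0.0291, edgeR adjusted p = 0.513).

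For drl the log2 fold change in delta-POZ over Halo-Trl was 0.27 (SE 0.10, 95% interval 0.04 to 0.50, edgeR adjusted p = 0.135), and DESeq2 called it (adjusted p = 0.0484). The authors' deposited table lists drl at 0.29 with an adjusted p of 0.0403. In delta-Q over Halo-Trl drl gave 0.14 (95% interval -0.09 to 0.38, edgeR adjusted p = 0.865). The deletion lines themselves were not told apart at either gene, with log2 differences of delta-Q over delta-POZ of -0.12 for dnt (95% interval -0.40 to 0.16, edgeR adjusted p = 0.646) and -0.12 for drl (-0.36 to 0.11, edgeR adjusted p = 0.549). The disc loop list has no loop at the place of the embryo dnt/drl loop, so no disc contacts stand beside these levels.

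The Slit receptor robo2 was the single member with a negative value in delta-POZ over Halo-Trl. Its levels were 137, 93.4 and 105 CPM in delta-POZ, 237, 187 and 130 in delta-Q, and 190.5, 147 and 179 in Halo-Trl. Every delta-POZ library lay below every Halo-Trl library, as it did for 16.9% of all genes, while delta-Q overlapped both other lines. In delta-POZ over Halo-Trl robo2 gave a log2 fold change of -0.62 (SE 0.22, 95% interval -1.11 to -0.14, edgeR adjusted p = 0.102). DESeq2 called robo2 (log2 -0.60, adjusted p = 0.0234). With replicate number added to the fit edgeR called it narrowly, but the labels do not say that these numbers mark a shared batch. The authors' deposited table lists robo2 at -0.60 with an adjusted p of 0.0295. In the 3 libraries of delta-POZ, robo2 averaged 112 ± 22.5 CPM, against 172 ± 22.8 in Halo-Trl (SD, n = 3 each).

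In delta-Q, robo2 averaged 184 ± 53.6 CPM (SD, n = 3), with a log2 difference from Halo-Trl of 0.10 (95% interval -0.38 to 0.58, edgeR adjusted p = 0.981). Against delta-POZ the difference was 0.72 (SE 0.22, 95% interval 0.24 to 1.21, edgeR adjusted p = 0.0954). That value became 0.93 and was called without delta-Q 3 (edgeR adjusted p = 0.0318), the library with the lowest robo2 level of its line and the highest fat body marker sum. It was 0.58 without delta-POZ 2 (edgeR adjusted p = 0.256) and 0.77 without delta-POZ 2, delta-Q 3 and Halo-Trl 1 together (0.0521). Delta-Q 3 also had the highest mitochondrial share of all RNA libraries. That share was 20.4%, 25.7% and 28.3% in delta-POZ 1 to 3 and 15.1%, 23.7% and 31.1% in delta-Q 1 to 3. In Halo-Trl 1 to 3 it was 22.4%, 28.9% and 26.3%. Whether robo2 levels go with the mitochondrial share was not tested. The robo2 loop in the same lines showed no such order, with 228 ± 31.3 normalised contacts in delta-POZ and 214 ± 7.95 in Halo-Trl (SD, n = 2 each). RefSeq places an antisense gene, asRNA:CR44897, over robo2, with 75 reads over all RNA libraries against 97423 of robo2. Whether reads were counted by strand is not stated in the labels or notes. How reads from the stretch shared by the pair were assigned therefore cannot be told.

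The teneurin Ten-a had the most reads of the 8. Its levels were 787, 600 and 688 CPM in delta-POZ, 700, 630 and 541 in delta-Q, and 495, 621 and 546 in Halo-Trl. Only delta-POZ 1 and 3 lay above every Halo-Trl library among the delta-POZ libraries. For Ten-a this gave a log2 fold change of 0.32 in delta-POZ over Halo-Trl (SE 0.14, unadjusted p = 0.0493, edgeR adjusted p = 0.191) and 0.17 in delta-Q over Halo-Trl (95% interval -0.15 to 0.49, edgeR adjusted p = 0.903). In the authors' deposited table Ten-a has an adjusted p of 0.0806. The other gene named at its embryo loop, CG15734, lies within Ten-a in RefSeq and had 7 reads in all RNA libraries together.

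side-IV was the least read of the 8 and was not called in any comparison. Its levels were 3.85, 4.71 and 3.81 CPM in delta-POZ, 4.42, 2.94 and 3.66 in delta-Q, and 3.75, 3.35 and 4.96 in Halo-Trl. All lines overlapped. In delta-POZ over Halo-Trl side-IV had a log2 fold change of 0.04 (SE 0.27, 95% interval -0.58 to 0.65, edgeR adjusted p = 0.953), beside the fall of 39.6% in the contacts of the CG14372 loop in that line. Antisense genes over side-IV had 103 reads in all, against 2405 of side-IV.

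**Figure D5:**
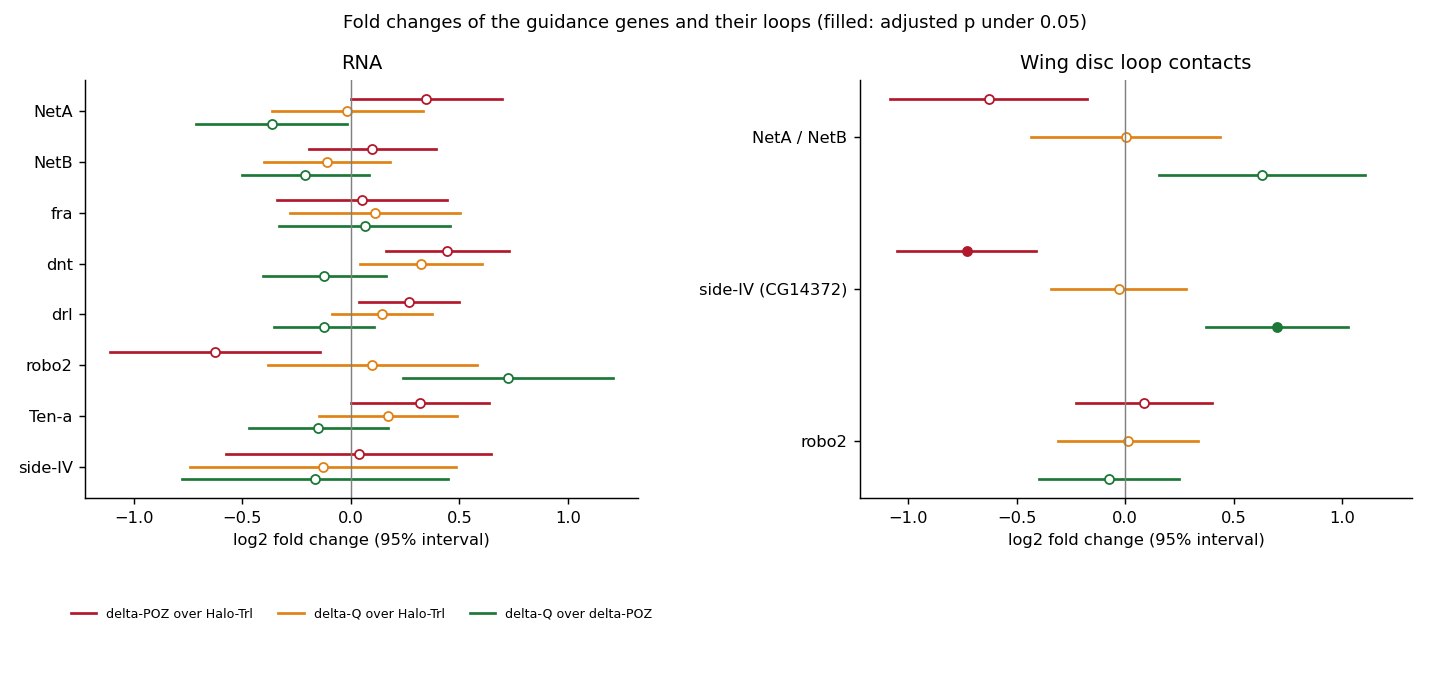
Log2 fold changes with 95% intervals of RNA for the 8 genes (left) and of contacts at 3 wing disc loops (right), for delta-POZ over Halo-Trl, delta-Q over Halo-Trl and delta-Q over delta-POZ. Filled points passed an adjusted p of 0.05 in edgeR: the CG14372 loop passed in 2 comparisons, at -0.73 and 0.70, and no gene passed.

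Within delta-POZ, library 1 was the highest of the 3 for 7 of 8 genes, and library 2 was the lowest for 6 of 8. The exceptions were side-IV, highest in library 2, and NetB and side-IV, lowest in library 3. The median log2 fold change over the 8 genes was 0.18 in delta-POZ over Halo-Trl, 0.11 in delta-Q over Halo-Trl and -0.14 in delta-Q over delta-POZ. Over all 10359 genes these medians were -0.01, 0.02 and 0.02.

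The genes whose levels over the 9 RNA libraries were most like those of a member are given as a description, since the libraries share genotype and depth. robo2 was followed most closely by eIF3f1 and eEF2, genes of translation, each with a Pearson's r of 0.986, and by the nucleoporin gene Nup358 (0.975), out of 6942 genes compared. drl was most like mab-21 (0.954), CG8668 and sas, and dnt most like CG6966 (0.950), l(1)G0320 and dbr. fra was closest to kon (0.965), CG17233 and ihog, and Ten-a to Fhos (0.954), Cad86C and emp. NetB was closest to CG3308 (0.943), wit and CG45050. NetA was closest to CG32137 (0.925), Msr-110 and shv, and side-IV to EloC (0.927), CG3792 and SelT. No member was among the 3 genes nearest to another member.

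Other guidance genes were looked at in 10 lists, which hold 72 genes beside the 8. Of these, 57 passed the filter on low counts. In delta-POZ over Halo-Trl 3 were called higher and 0 lower, where 4.93% of all genes were called higher, so 3 of 57 is near the background. Their median log2 fold change was 0.15, close to the 0.18 of the 8 genes. An unadjusted edgeR p under 0.05 was found for 21 of the 57, against 26% of all genes. Some listed genes varied widely within delta-POZ, such as Dscam2 (0.0445 to 33.9 CPM) and side-VII (0.203 to 21.0). Others varied little, such as Ten-m (931 to 1148 CPM). How far the count of 21 rests on delta-POZ 2, the library high in neuron markers, was not tested. In delta-Q over Halo-Trl none was called by edgeR, where 0.656% of all genes were called, and 5 of 57 had an unadjusted p under 0.05, against 7.82% of all genes. DESeq2 called Ephrin there, among 238 genes that it called in all. In delta-Q over delta-POZ 3 were called lower and 0 higher, where 1.55% of all genes were called lower. The unadjusted edgeR p was under 0.05 for 15 of 57 there, against 20.3% of all genes. The part of delta-POZ 2 in that count was not tested either.

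The genes called higher were side, side-II and beat-IIa. side, which encodes a motor axon attractant, was at 16.1, 18.8 and 8.76 CPM in delta-POZ, 7.02, 5.05 and 3.30 in delta-Q, and 4.37, 2.49 and 3.36 in Halo-Trl. Every delta-POZ library lay above every library of the other lines. side rose in delta-POZ over Halo-Trl (log2 2.09, SE 0.37, edgeR adjusted p = 0.00728), with adjusted p up to 0.0425 over the alternatives and a log2 fold change of 1.87 without delta-POZ 2. It fell in delta-Q over delta-POZ (log2 -1.50, edgeR adjusted p = 0.0468), and 9 of 18 alternatives no longer called it. side-II had 27, 319 and 32 reads in delta-POZ, 24, 10 and 28 in delta-Q, and 0 in all 3 Halo-Trl libraries. RefSeq places the protein-coding gene CG3491 over side-II, with 66 reads over all RNA libraries against 440 of side-II. How reads from their shared stretch were assigned cannot be told. Of the 378 side-II reads in delta-POZ, 319 were in delta-POZ 2. Against a floor of 3 reads over the Halo-Trl libraries together, the pooled delta-POZ level was at least 133-fold higher. Without delta-POZ 2 it was at least 29.8-fold higher. The edgeR test, which uses its own estimate and not this floor, called side-II higher (adjusted p = 0.0123, and 0.0321 without delta-POZ 2). Of 16 alternatives, 1 lost the call of side-II, that with delta-POZ 2, delta-Q 3 and Halo-Trl 1 left out together (adjusted p = 0.0554).

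beat-IIa, a gene of the Beat family, was at 2.84, 10.6 and 2.67 CPM in delta-POZ, 0.674, 0.744 and 0.735 in delta-Q, and 0.831, 0.311 and 1.01 in Halo-Trl. It was higher in delta-POZ than in Halo-Trl (log2 2.91, SE 0.64, edgeR adjusted p = 0.0198), but the value fell to 1.95 and the call was lost without delta-POZ 2 (adjusted p = 0.0660), the library high in neuron markers. It was lower in delta-Q than in delta-POZ (log2 -2.90, edgeR adjusted p = 0.0336), and -1.96 without delta-POZ 2 (adjusted p = 0.110). Ephrin, the ligand of the Eph receptor, was at 635, 636 and 689 CPM in delta-POZ, 346, 441 and 412 in delta-Q, and 564, 646 and 608 in Halo-Trl. Every delta-Q library lay below every other library. Ephrin fell in delta-Q over delta-POZ (log2 -0.71, SE 0.12, edgeR adjusted p = 0.00798) and had a log2 fold change of -0.60 over Halo-Trl (SE 0.12, edgeR adjusted p = 0.0548).

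Loops named for other genes of these lists were few. There were 3 in the disc list (Dscam1, trn/caps and comm2/comm) and 3 in the embryo list (comm2/comm, beat_Vc/beat_Vb and Fas2/CG15578). None was called. The share of all loops called was 4.31%, 0% and 4.31% in the disc comparisons and 2.69% in embryos. At shares this low a count of 0 is likely for any 3 loops, so it says nothing particular about these loops. They had log2 fold changes of -0.29 to 0.28 in discs and -0.68 to 0.27 in embryos (edgeR adjusted p of 0.619 to 0.988 and 0.139 to 0.950). The comm2/comm loop, at genes that regulate Robo receptors, had 22.1 ± 6.23 normalised contacts in GAF(deGradFP) and 36.6 ± 7.32 in sfGFP-GAF(N) control (SD, n = 4 each). Every depleted library lay below every control there, as it did for 4.84% of embryo loops (log2 -0.68, SE 0.25, unadjusted p = 0.0108, edgeR adjusted p = 0.139). It was called without GAF(deGradFP) 4 (log2 -0.80, edgeR adjusted p = 0.0249). This loop is singled out after its values were seen.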

How the data were processed

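Raw counts of reads per gene (17868 genes, 9 libraries) and raw counts of contacts per loop were used as deposited by the authors. For RNA-seq, featureCounts and DESeq2 are listed in the submitters' processing notes, and for contacts BWA, bedtools and DESeq2. Genome build, strand setting and tool versions were not stated there or in the labels. Tables of the authors' own comparisons hold, per the file headers, a mean and a statistic (scores), log2 fold changes with standard errors, and p-values with adjusted p-values. Halo-Trl was assigned the disc columns headed wt, since no other column could be its own. Embryo columns headed as knock-out were assigned to GAF(deGradFP), those headed GFP-GAF to the sfGFP-GAF(N) control, and 6 empty embryo cells were read as 0.

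Counts were tested with edgeR 4.0.16 (R 4.3.3), using quasi-likelihood F tests after TMM normalization. Each assay had a single fit over its genotypes with no further covariate. The filterByExpr function left 10359 genes, and a loop was kept from 10 contacts upward, summed across libraries. Benjamini-Hochberg adjustment ran over everything tested in a comparison, and a call is an adjusted p below 0.05. The SE of a log2 fold change is its size divided by the square root of F. CPM uses the effective library size. To normalise contacts, each count was scaled by the ratio of mean to own effective library size, which removes any shift common to all loops. Precision is limited by 2 to 4 libraries per group, and each fit shares its estimate of spread across genes or loops. For disc loops the intervals rest almost wholly on that shared estimate. For embryos the labels do not say that libraries came from separate collections, so the spread behind those p-values is that of the samples given and may be purely technical.

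The 8 genes, their loops and the gene lists were chosen with earlier results of these data known. The named genes are the 8 members with their loops, Trl, the called genes of the guidance lists (at most 4 per list and comparison), and for each member the 3 genes with a mean of at least 1 log2 CPM and the highest Pearson correlation. RefSeq (Release 6 plus ISO1 MT) served for names and gene order only. Marker lists of 7 cell types were summed per library. Summed levels of glia markers were 8.25 to 37.8 CPM in delta-POZ, 6.99 to 8.52 in delta-Q and 7.53 to 9.48 in Halo-Trl, and those of trachea markers were 1500 to 2015 CPM in delta-POZ, 1468 to 1708 in delta-Q and 1132 to 1559 in Halo-Trl. The alternatives tried comprised DESeq2 1.42.0, different normalizations and filters, the compared genotypes alone, mitochondrial genes left out, a replicate block, each library left out in turn and, chosen after seeing the data, delta-POZ 2, delta-Q 3 and Halo-Trl 1 left out together.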

Additional observations from a re-analysis of the deposited data

Results flagged for a closer look

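The CG14372 (side-IV) loop in wing discs differed between the deletion lines when they were compared directly, with a log2 difference of delta-Q over delta-POZ of 0.70 (edgeR adjusted p = 0.00134). In RNA, which came from other libraries, 3 of 57 tested genes of the guidance lists were called lower in delta-Q than in delta-POZ. Of all genes, 1.55% were called lower there. The log2 differences were -0.71 for Ephrin, -1.50 for side and -2.90 for beat-IIa. Of 18 alternatives, 9 lost the call of side and 7 that of beat-IIa, and 0 lost that of Ephrin. These comparisons share the delta-POZ libraries with those against Halo-Trl.

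In the embryo table, single libraries lay far from the others of their group at 2 loops, out of 10 groups of 4 libraries examined. At the NetA/NetB loop sfGFP-GAF(N) control 1 had 14.5 normalised contacts while the other controls had 19.4 to 20.4. At the dnt/drl loop the same library had 15.7 and the other controls 9.75 to 10.6. Chance alone marks about 5% of groups in this way. Without control 1 the log2 fold changes of GAF(deGradFP) over control were -0.72 at NetA/NetB (edgeR adjusted p = 0.386) and 0.65 at dnt/drl (edgeR adjusted p = 0.470), and neither loop was called with or without it.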

How the results depend on the processing

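Of 432 repeats of the 24 comparisons of member genes, 402 kept direction and side of the threshold, 11 became called and 19 changed sign, and of 186 repeats for 14 comparisons of member loops, 168 kept both, 4 lost a call and 14 changed sign. Sign changes concerned values that were not called, of at most 0.13 in size on the log2 scale and with edgeR adjusted p of at least 0.646. Leaving out 1 library at a time gave ranges of log2 fold changes that crossed 0. For delta-POZ over Halo-Trl these were -0.15 to 0.16 for fra, -0.082 to 0.21 for side-IV and -0.057 to 0.23 for the robo2 loop. For delta-Q over Halo-Trl they were -0.12 to 0.074 for NetA, -0.22 to 0.019 for NetB, -0.037 to 0.24 for fra, -0.12 to 0.30 for robo2, -0.28 to 0.054 for side-IV, -0.057 to 0.061 for the robo2 loop, -0.23 to 0.10 for the comm2/comm loop, -0.19 to 0.13 for the CG14372 loop and -0.11 to 0.10 for the NetA/NetB loop. For delta-Q over delta-POZ they were -0.10 to 0.26 for fra, -0.23 to 0.047 for dnt and -0.21 to 0.068 for the robo2 loop. With 3 libraries left out together side-IV gave -0.10 in delta-POZ over Halo-Trl. In delta-Q over Halo-Trl the NetA/NetB loop gave -0.0061 with RLE normalization, -0.0077 with DESeq2, -0.032 with loop totals and -0.011 with the lines compared alone, and the robo2 loop -0.021 with loop totals and -0.0012 alone. Counts of calls in delta-POZ over Halo-Trl were 411 to 1258 without 1 library and 1643 with DESeq2, against 1050. In delta-Q over Halo-Trl they were 21 to 89 without 1 library, 238 with DESeq2, 45 with a replicate block and 107 with 3 libraries left out, against 68. In delta-Q over delta-POZ they were 237 to 447, 1015 with DESeq2, 263 with these lines alone and 312 with 3 libraries left out, against 477. For disc loops of delta-Q over delta-POZ, DESeq2 called 5 against 9, with 6 to 9 without 1 library. Embryo calls were 1 to 16 without 1 library, 3 with DESeq2 and 3 with a replicate block, against 5. The cause was not tested. Replicate numbers were not used as pairs, since the labels do not say that they mark a shared batch. Deviations of same-numbered libraries of different lines correlated at -0.14 to 0.20 for RNA and -0.10 to 0.18 for embryo loops. For different numbers the ranges were -0.17 to 0.18 and -0.23 to 0.17. For disc loops they were -0.27 to -0.06 and 0.06 to 0.27. With 2 disc libraries per line these disc ranges mirror each other by construction, so they cannot show whether numbers pair. With the block robo2 was called in delta-POZ over Halo-Trl (log2 -0.64, edgeR adjusted p = 0.0494), and beat-IIa was called neither in that comparison (2.71, edgeR adjusted p = 0.0600) nor in delta-Q over delta-POZ (-2.78, adjusted p = 0.0792). Depth limits the embryo loops most, where member loops held 0 to 83 contacts per library. Under the stricter filter on summed contacts the Ten-a/CG15734 embryo loop was removed, so it has no value there.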
